A study of Rattus norvegicus with 86 samples.

Results

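Expression of 3 genes of the major histocompatibility complex (MHC) class II system was followed in the nucleus accumbens core of outbred rats. They were Cd74 (ENSRNOG00000018735), RT1-Da (ENSRNOG00000032844) and RT1-Ba (ENSRNOG00000000451), chosen by their Ensembl identifiers, and all 3 are rows of a table of 17180 genes. The rats were Heterogeneous Stock (HS), an outbred population bred from inbred founder strains. They had shared cages and had received no drug and no behavioral test. RNA-Seq of polyA RNA was analysed from 75 rats, 1 library each, of which 38 were female and 37 male, and another 11 of the 86 samples were labelled as removed and were not analysed here. The labels divide them into rat batches. Rat batch 2 held 2 females and 10 males, batch 3 held 13 and 7, batch 4 held 14 and 12, batch 5 held 1 female, and batch 6 held 8 and 8. They do not say what a rat batch was. The labels set no groups by genotype or treatment, so the comparisons were between individual rats, between sexes and between rat batches. Outbred rats differ in genotype from each other, and genotypes were not read here. The age of each rat is not given in the labels. The region was dissected from frozen sections as bilateral tissue, and values are therefore averages over all its cells. In such bulk tissue, fewer cells of a type and less RNA per cell cannot be told apart.

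MHC class II molecules are pairs of an alpha and a beta chain that present peptides to helper T cells. RT1-Da encodes the alpha chain of the rat RT1-D molecule, the counterpart of human HLA-DR, and RT1-Ba encodes the alpha chain of RT1-B, the counterpart of HLA-DQ. Cd74 encodes the invariant chain, a chaperone that fills the peptide groove of new class II molecules and guides them to the endosome. In the brain, class II molecules are known mainly from perivascular macrophages, dendritic cells and activated microglia. The promoters of these genes are known to share an X box, bound by RFX proteins, and a Y box, bound by NF-Y, on which the coactivator CIITA assembles.

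The 250 bases before the start of each gene are shown because the results below turn on how closely the 3 genes moved together. All 3 matched by symbol in the RefSeq promoter table of build GRCr8, on the + strand. Cd74 was at chr18:56526956-56527205, RT1-Da at chr20:4515165-4515414 and RT1-Ba at chr20:4576807-4577056. Each sequence is written 5′ to 3′, and capitals mark first a match to CTNGNAAC and then a match to CCAAT, read as CCAAT or, on the other strand, as ATTGG.
Cd74: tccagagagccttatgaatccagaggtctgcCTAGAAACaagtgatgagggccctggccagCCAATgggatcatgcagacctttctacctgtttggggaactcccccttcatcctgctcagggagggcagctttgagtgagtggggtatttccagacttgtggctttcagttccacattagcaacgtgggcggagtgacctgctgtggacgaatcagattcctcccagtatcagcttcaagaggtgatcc
RT1-Da: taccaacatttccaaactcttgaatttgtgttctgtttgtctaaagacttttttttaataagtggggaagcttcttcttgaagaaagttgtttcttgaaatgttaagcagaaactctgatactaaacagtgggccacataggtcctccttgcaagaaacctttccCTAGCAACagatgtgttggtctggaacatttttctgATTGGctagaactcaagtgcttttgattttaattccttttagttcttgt
RT1-Ba: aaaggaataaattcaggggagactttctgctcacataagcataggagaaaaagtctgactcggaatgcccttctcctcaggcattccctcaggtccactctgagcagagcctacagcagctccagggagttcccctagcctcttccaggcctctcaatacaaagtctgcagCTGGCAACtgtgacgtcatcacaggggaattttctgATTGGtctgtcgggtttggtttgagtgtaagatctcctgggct
CTNGNAAC, searched on both strands, and the range of distances used below were written after these sequences had been seen, with the X box in mind, so the shares below describe a pattern fitted to them. In RT1-Da and RT1-Ba it lay 85 and 79 bases before the start, and ATTGG began 36 bases further on in each. In Cd74 it lay 219 bases before the start, with CCAAT 30 bases further on. Of 33469 promoter windows of the same table, each from 250 bases before to 50 bases after a start, 13.8% held CTNGNAAC and 37.5% held CCAAT on either strand. CTNGNAAC followed by CCAAT or ATTGG at a distance of 25 to 40 bases between their first letters was in 0.356% of the windows. A match is a run of letters and does not show binding. In the same reference, RT1-Da and RT1-Ba lie on chromosome 20 with 2 protein-coding genes between them, RT1-Db2 and RT1-Db1, while Cd74 lies on chromosome 18.

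The deposited values are log2(scaled count + 1), and levels are also given as counts per 1000000 counted reads (CPM), from counts recovered from those values. On the log2(scaled count + 1) scale a difference understates the change of a low gene. Recovered totals ran from 8455363 to 26145409 reads, with a median of 17734520. Male rat 25 (8455363) and male rat 24 (10372202) were the 2 shallowest libraries, with 1318 and 1399 of the genes at 0, and the main results are also given without them where this changes a call or moves the value. Gene lengths were not used, so levels are not compared between genes. The tissue could not be checked against its defining markers, because no table used here pairs other gene names with the identifiers in the file. For the same reason the other genes of the class II pathway, such as the beta chains, were not read.

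Cd74 was detected in every rat. Its level was 1.03 CPM in the lowest rat, 2.99 in the median rat and 14.9 in the highest, from 18, 52 and 292 reads. On the log2 scale its mean was 5.88 ± 0.82 (SD, n = 75). The mean CPM was 1.24 times the median, and the 10 rats with the highest values held 31.2% of the CPM summed over the 75 rats, so the distribution had a long upper tail (skewness of CPM 1.92).

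RT1-Da was lower in reads, with a median of 0.596 CPM and of 11 reads. The highest level, 3.19 CPM (95% Poisson interval 2.10 to 4.65), was that of male rat 25, the shallowest library, from 27 reads, and the next was that of female rat 37, 2.17 CPM from 44 reads. Its log2 mean was 3.63 ± 0.95 (SD, n = 75). It was at 0 in 1 library, that of male rat 24, where 3 reads would be 0.289 CPM. Another 3 libraries held 3 reads or fewer. Its CPM had a skewness of 1.93, and the 10 highest rats held 30.6% of the sum. Without male rat 25 these were 1.08 and 28.8%, so much of the skewness came from that library.

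RT1-Ba was at the limit of detection in many rats. The median was 7 reads, or 0.363 CPM, and the highest value was 1.77 CPM, also in male rat 25, followed by 1.72 CPM in male rat 35. It was at 0 in 5 libraries, those of female rats 18 and 19 and male rats 7, 24 and 30, where 3 reads would be between 0.115 and 0.289 CPM. In all, 21 of 75 libraries held 3 reads or fewer. Its log2 mean was 2.80 ± 1.30 (SD, n = 75), and its 10 highest rats held 38.1% of the summed CPM.

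**Figure D1:**
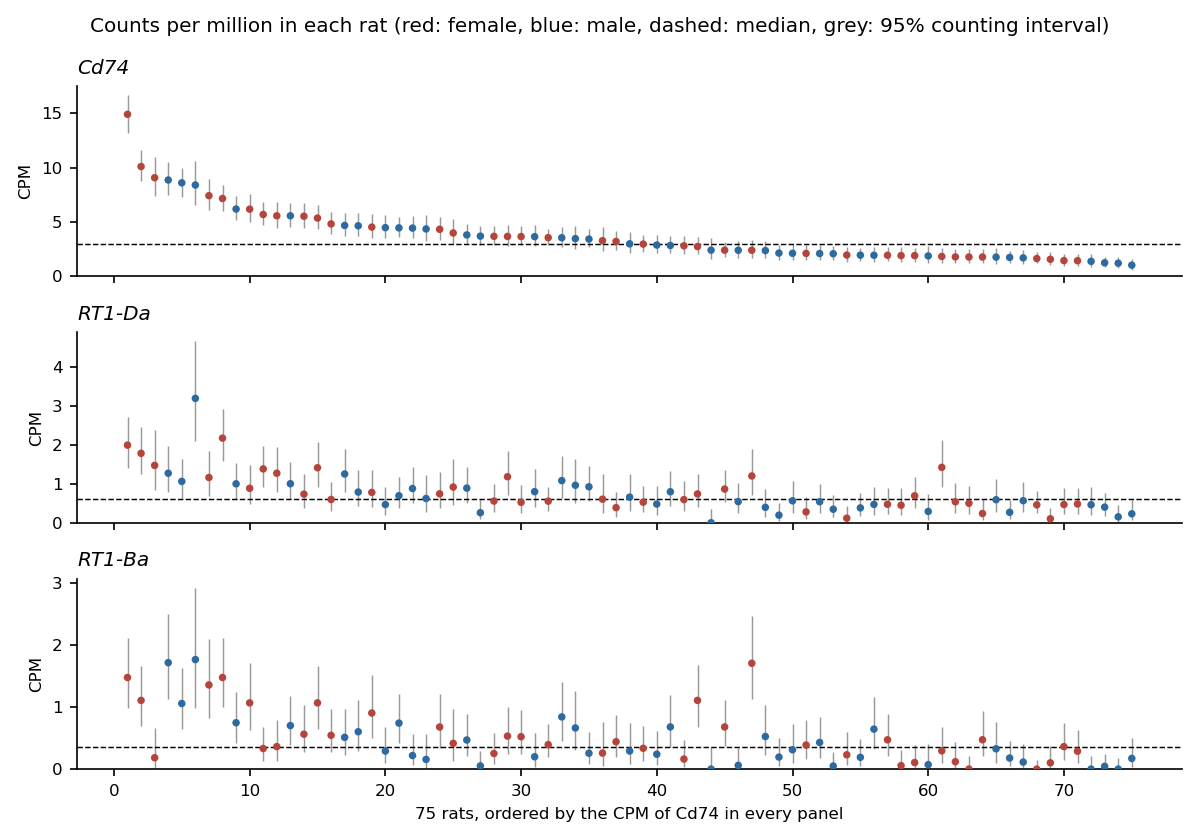
CPM of Cd74, RT1-Da and RT1-Ba in each of the 75 rats, ordered by Cd74 in every panel. Red points are females, blue points males, grey bars the 95% Poisson counting interval and dashed lines the medians. Cd74 falls from 14.9 to 1.03 CPM, and the highest values of RT1-Da and RT1-Ba are mostly at the left.

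The spread between rats was wider than counting alone gives. For Cd74, the coefficient of variation of CPM was 66.2%, of which counting noise alone gave 12.7%, and the variance over mean of the counts was 29.5 times that of Poisson counts. For RT1-Da the coefficient was 68.3% against 28.5% from counting, with a variance ratio of 5.55. For RT1-Ba it was 90.2% against 35.3%, with a ratio of 6.69. Counting thus took 3.69%, 17.4% and 15.3% of the variance of CPM in Cd74, RT1-Da and RT1-Ba. With counting variance subtracted, the coefficients were 65.0%, 62.1% and 83.0%. The reads carried no molecular identifiers, so these figures and all intervals cover counting error only.

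Rat batch and sex means were then removed, over the 74 rats of rat batches 2, 3, 4 and 6. The residual SD of Cd74 was 0.77 on the log2 scale. Among 1212 genes with a mean level within 0.5 of that of Cd74, the median SD was 0.40, and 91.9% had a lower SD than Cd74. The residual SD of RT1-Da was 0.87, higher than that of 68.4% of 891 genes of similar level, whose median was 0.77. That of RT1-Ba was 1.22, higher than that of 83.6% of 890 genes, whose median was 0.93. Without male rat 24 the SD of RT1-Da was 0.793 and its place 58.1%, and without both male rats 24 and 25 they were 0.761 and 54.4%. Relative to genes of like level, Cd74 therefore stood highest and RT1-Da closest to the middle, with and without these rats. The SDs of the 2 low genes depend on the value added before the logarithm. With 8 added in place of 1, they were 0.52 for RT1-Da and 0.60 for RT1-Ba.

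**Figure D2:**
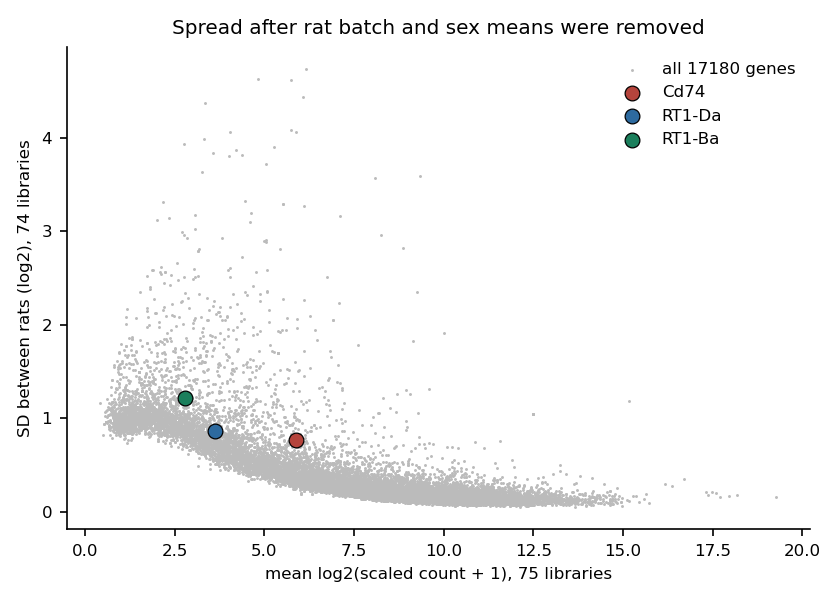
Residual SD between 74 rats against the mean level over 75 libraries on the log2(scaled count + 1) scale, with each of the 17180 genes as a grey point and the 3 genes as coloured points. Cd74 lies above most genes of its level at an SD of 0.77, and RT1-Da lies nearer to the bulk at 0.87.

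No separate classes of rats were seen in the residuals. A normal mixture of 2 components had a higher Bayesian information criterion than a single normal for each gene, by 8.5 for Cd74, 12.4 for RT1-Da and 11.7 for RT1-Ba. The widest gap between neighbouring rats was at an edge each time. In Cd74 it was 0.487 and set apart the 2 highest rats, male rat 5 and female rat 3. In RT1-Da it was 0.777 and set apart the 2 lowest, male rat 24 and female rat 12. In RT1-Ba it was 0.654 and set apart the lowest, female rat 19. The skewness of the log2 residuals was 0.53 for Cd74, -0.49 for RT1-Da and -0.18 for RT1-Ba. The value of RT1-Da rested on male rat 24, and without it the skewness was 0.0063, the widest gap (0.755) set apart only the lowest rat and the criterion differed by 13. Without male rat 25 they were -0.68, 0.78 and 8.09. These measures are descriptions, with no test.

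The rats at the top were largely shared. Female rat 3 of rat batch 3 had the highest Cd74, with 14.9 CPM (95% Poisson interval 13.2 to 16.7). It ranked 3 of 75 for RT1-Da (1.99 CPM) and 5 for RT1-Ba (1.48 CPM). Of the 10 highest rats for each gene, 5 were common to all 3 genes, namely female rats 3, 6 and 37 and male rats 25 and 35. Cd74 shared 6 of its 10 with RT1-Da and 7 with RT1-Ba, and RT1-Da shared 6 with RT1-Ba. At the low end only male rat 7 was among the 10 lowest for all 3 genes, with 1.21 CPM of Cd74, 0.151 of RT1-Da and 0 reads of RT1-Ba.

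Some rats broke the pattern. Female rat 16 ranked 3 for Cd74 (9.07 CPM) and 5 for RT1-Da (1.47 CPM), but 56 for RT1-Ba (0.183 CPM, from 2 reads). Female rat 32 ranked 3 for RT1-Ba (1.71 CPM) and 46 for Cd74 (2.40 CPM). Female rat 20 ranked 6 for RT1-Da (1.42 CPM) and 61 for Cd74 (1.83 CPM). Male rat 24 had 0 reads of both alpha chain genes beside 25 reads of Cd74 (2.41 CPM, rank 44).

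Across the 74 rats, each pair of genes was positively correlated after rat batch and sex means had been removed. For Cd74 and RT1-Da, Pearson's r was 0.642 (permutation p = 1e-05) and Spearman's rho was 0.688 (p = 1e-05). For Cd74 and RT1-Ba, r was 0.584 and rho was 0.556 (p = 1e-05 for each). For RT1-Da and RT1-Ba, r was 0.606 and rho was 0.641 (p = 1e-05 for each). The p-values are two-sided, from 100000 permutations within rat batch, and are the smallest these can give. They were also 1e-05 after Benjamini-Hochberg adjustment over the 3 pairs. Without the 2 rats farthest from the median of the first gene, r was 0.608, 0.528 and 0.582 in the same order. Without male rats 24 and 25, r was 0.723, 0.590 and 0.577.

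**Figure D3:**
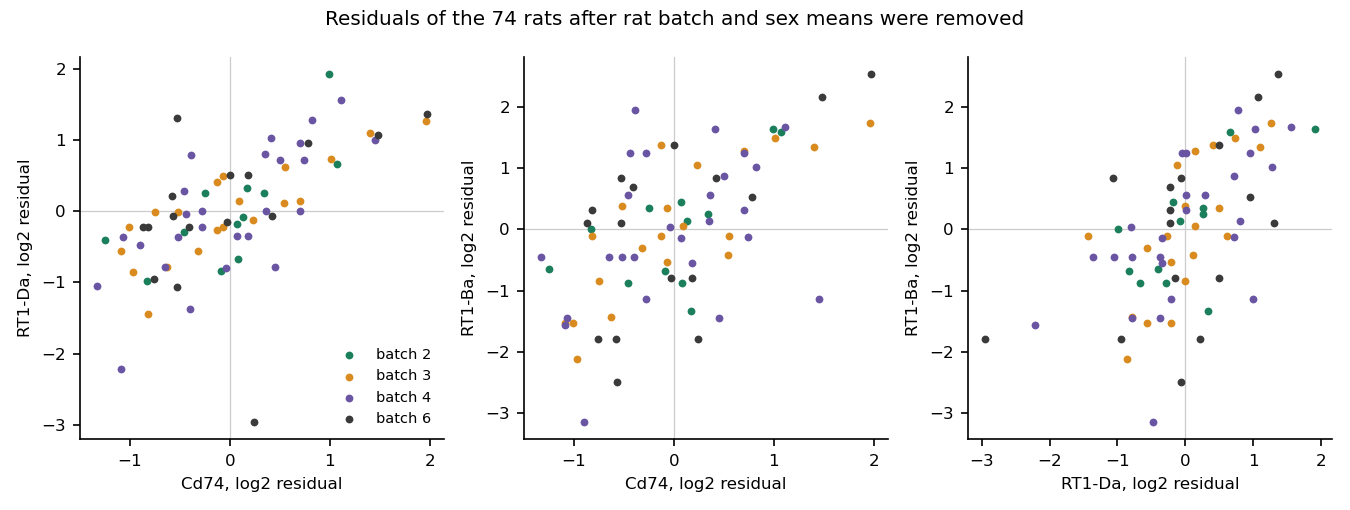
Log2 residuals of the 74 rats for each pair of genes, after rat batch and sex means were removed, with 1 point for each rat coloured by rat batch. The points of every batch run from lower left to upper right, with r over all rats of 0.642, 0.584 and 0.606 from left to right.

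The correlation was positive within each rat batch. Among the 12 rats of batch 2, r was 0.725 for Cd74 and RT1-Da, 0.631 for Cd74 and RT1-Ba, and 0.671 for RT1-Da and RT1-Ba. In rat batch 3 (20 rats) the values were the highest, at 0.828, 0.796 and 0.701 in that order. The 26 rats of batch 4 gave 0.723, 0.385 and 0.613, and the 16 rats of batch 6 gave 0.401, 0.607 and 0.527. The value of 0.401 rested on male rat 24, and the other 15 rats of that batch gave 0.669, 0.661 and 0.46. Without male rat 25 the other 11 rats of batch 2 gave 0.641, 0.506 and 0.475. Within females, r was 0.692, 0.565 and 0.508, and within males 0.6, 0.607 and 0.713. Within the 3 runs of table columns described with the rat batches below, r was 0.773, 0.689 and 0.599 for Cd74 and RT1-Da, 0.803, 0.37 and 0.517 for Cd74 and RT1-Ba, and 0.728, 0.402 and 0.59 for RT1-Da and RT1-Ba, over 19, 12 and 43 rats. Differences of r between batches, sexes or runs were not tested.

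Depth moved little with the 3 genes. After the same removal, r with the log2 total count was -0.201 for Cd74 (permutation p = 0.0872), -0.0953 for RT1-Da (p = 0.427) and -0.0881 for RT1-Ba (p = 0.461). Spearman's rho was -0.155, -0.148 and -0.131 (permutation p = 0.192, 0.215 and 0.274). With the number of genes at 0 in the library, r was 0.0912, 0.0501 and -0.027 (permutation p = 0.442, 0.682 and 0.825), and rho was 0.0777, 0.107 and 0.023 (p = 0.517, 0.369 and 0.847). None of these 6 relations passed after adjustment, the lowest adjusted p being 0.523 for r and 0.548 for rho. Without the 2 libraries farthest from the median total, r with the total was -0.0657, 0.084 and -0.0766. Without the 2 farthest in genes at 0, r with that number was 0.0113, 0.138 and -0.0328.

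Each gene was also compared with every other gene of the table by the same r over 74 rats. The 2 genes most like Cd74 among 17179 were RT1-Da and RT1-Ba. The 2 most like RT1-Da were Cd74 and RT1-Ba, and the 2 most like RT1-Ba were RT1-Da and Cd74. The central 95% of all r lay between -0.253 and 0.267 for Cd74, between -0.249 and 0.257 for RT1-Da, and between -0.204 and 0.217 for RT1-Ba. Only 5 genes had r above 0.5 with Cd74, 3 with RT1-Da and 2 with RT1-Ba, counting the other 2 of the 3 genes. In 16 of 17 alternative settings all 6 places were within the first 4. The exception was a pseudocount of 0.1, where the lowest place was 27. Within single rat batches of 12 to 26 rats the lowest of the 6 places was 6 for batch 3, 663 for batch 4, 726 for batch 2 and 1864 for batch 6.

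**Figure D4:**
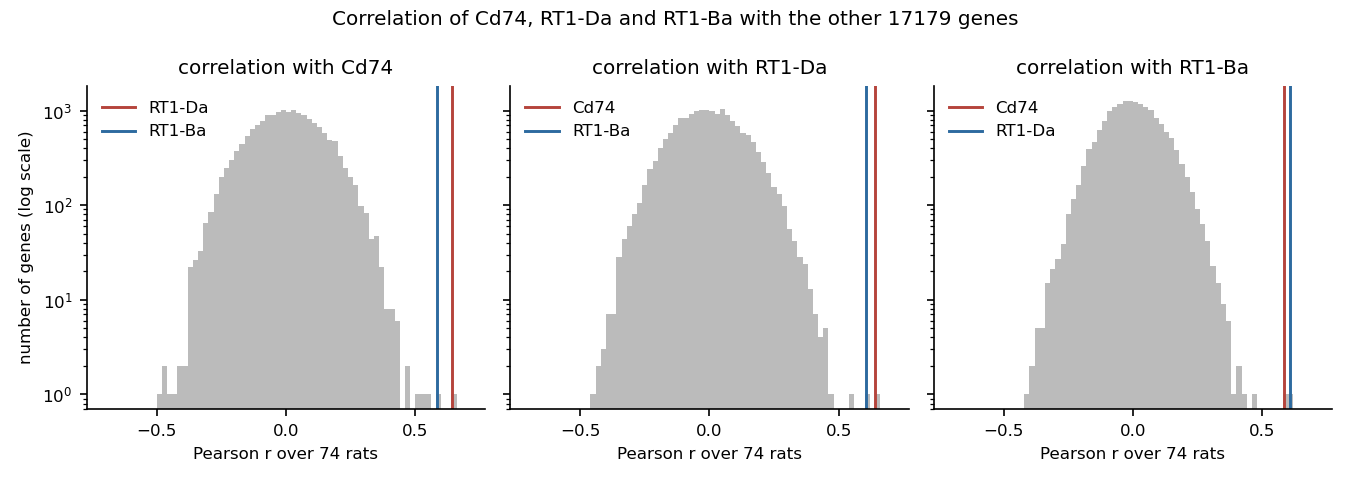
Number of genes, on a log axis, by their Pearson r over 74 rats with Cd74, RT1-Da and RT1-Ba, for residuals after rat batch and sex means were removed. Coloured lines mark the other 2 of the 3 genes, which lie at the right end of each distribution, at r of 0.584 to 0.642.

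Among genes with a mean log2 level of at least 5, and apart from the 3 genes, the highest r was 0.551 with Cd74 (ENSRNOG00000046834) and 0.55 with RT1-Da (ENSRNOG00000017744). The highest with RT1-Ba was 0.418, against 0.479 over genes of all levels. The lowest values were -0.48 with Cd74 (ENSRNOG00000001099) and -0.422 with RT1-Da (ENSRNOG00000000506), and -0.391 with RT1-Ba. These are correlations across the same libraries, which share depth and composition, and are given without a test.

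Females had the higher mean of each gene, and none of the 3 differences passed the test over all genes. With 20 principal components of expression as covariates the fitted difference of males from females was positive and again not called. It was 0.39 for Cd74, 1.01 for RT1-Da and 2.21 for RT1-Ba (limma, unadjusted p = 0.724, 0.407 and 0.209). The components were computed from the same expression values and can carry part of the sex difference, so this fit cannot decide the sign. Cd74 ran from 1.44 CPM through a median of 3.24 to 14.9 in the 38 females and from 1.03 through 2.88 to 8.86 in the 37 males. The ranges overlapped between 1.44 and 8.86 CPM, with some females above this stretch and some males below it. The difference of males from females was -0.29 on the log2 scale (SE 0.18, 95% interval -0.66 to 0.07, limma, adjusted p = 0.866). The share of all genes called in this comparison was 0.0873%.

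RT1-Da had a median of 0.647 CPM in females, between 0.101 and 2.17, and of 0.565 in males, between 0 and 3.19. The limma difference was -0.44 (SE 0.21, 95% interval -0.85 to -0.02), with an unadjusted p of 0.0415 and an adjusted p of 0.752. Without male rat 24, which had 0 reads of this gene, it was -0.34 (limma, unadjusted p = 0.0835, adjusted p = 0.838). RT1-Ba had a median of 0.406 CPM in females, between 0 and 1.71, and of 0.291 in males, between 0 and 1.77. Its difference was -0.69 (SE 0.29, 95% interval -1.27 to -0.11, limma, unadjusted p = 0.0213, adjusted p = 0.648). The median absolute difference over all genes was 0.05. It was not matched on level, so it does not scale the differences of low genes. The median SD between rats was 0.77 and 0.93 for genes near RT1-Da and RT1-Ba in level, against 0.40 near Cd74.

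Within rat batches the sign was mostly the same. The male minus female difference of RT1-Da was -0.13, -0.39, -0.47 and -0.56 in rat batches 2, 3, 4 and 6. Without male rat 24 the value of RT1-Da in batch 6 was -0.15, and without male rat 25 that in batch 2 was -0.34. The difference of Cd74 was -0.34, -0.43, -0.47 and 0.16 in the same order. That of RT1-Ba was 0.52 among the 2 females and 10 males of batch 2, and -0.59, -0.68 and -1.33 in rat batches 3, 4 and 6. Without male rat 24 the value in batch 6 was -1.12. In rat batch 6 the 8 males had a median of 1 read of RT1-Ba, with 6 of 8 at 3 reads or fewer, and the 8 females a median of 7.5 reads, with 1 of 8 at 3 or fewer. The interaction of sex and rat batch, fitted on rat batches 3, 4 and 6, did not pass for any of the 3 genes (limma F test, adjusted p = 1.00 for each, unadjusted p = 0.395, 0.960 and 0.641 for Cd74, RT1-Da and RT1-Ba). It called 0% of all genes, with 506 genes at an unadjusted p under 0.05, and 0 genes with voom. With a pseudocount of 8 the interaction called 1 gene, which was none of these 3.

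The spread did not differ detectably between the sexes. The log2 ratio of male to female variance within rat batches was -0.26 for Cd74 (permutation p = 0.810), 0.34 for RT1-Da (p = 0.708) and -0.33 for RT1-Ba (p = 0.674). The sign for RT1-Da turned without male rat 24 (-0.19) and without both male rats 24 and 25 (-0.46). The p-values are two-sided and unadjusted, from 100000 permutations of sex within rat batch for each of 3 ratios. Permuted ratios covered -1.12 to 0.86, -1.20 to 1.23 and -0.94 to 0.60 in their central 95%, so a ratio within those limits would not have passed the test.

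Among the 4 rat batches with more than 1 rat, rat batch 6 had the lowest and rat batch 2 the highest mean of each gene. The 12 rats of batch 2 had Cd74 levels between 1.77 and 8.86 CPM, with a median of 4.57. In batch 3 they lay between 1.70 and 14.9 (median 3.13), and those of batch 4 between 1.03 and 9.07 (median 3.32). The 16 rats of batch 6 lay between 1.21 and 8.6, with a median of 2.01 CPM, the lowest of these 4 batches. The single rat of rat batch 5 had 1.96 CPM. All batches overlapped, and the highest single rat was in rat batch 3.

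RT1-Da had medians of 0.739, 0.656, 0.663 and 0.477 CPM in rat batches 2, 3, 4 and 6, with highest rats at 3.19, 1.99, 2.17 and 1.42 and lowest rats at 0.395, 0.278, 0.101 and 0. RT1-Ba had medians of 0.575, 0.349, 0.326 and 0.292 CPM, with highest rats at 1.77, 1.48, 1.71 and 1.36. None of the 12 rats of rat batch 2 had fewer than 4 reads of RT1-Ba, while 7 of 20, 7 of 26 and 7 of 16 rats of rat batches 3, 4 and 6 had 3 or fewer. The single rat of rat batch 5 had 2 reads of RT1-Da (0.116 CPM) and 4 of RT1-Ba (0.231 CPM).

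**Figure D5:**
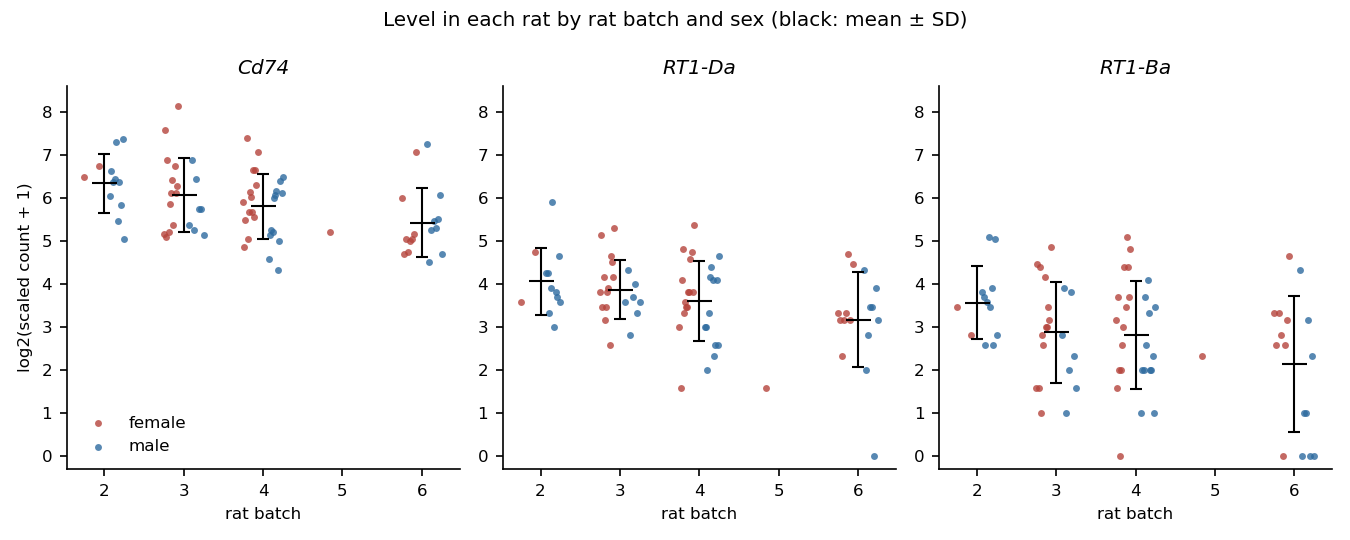
Log2(scaled count + 1) of Cd74, RT1-Da and RT1-Ba in each of the 75 rats by rat batch, females in red and males in blue, with the mean ± SD of each rat batch in black. The batch means fall from 6.34 to 5.43 for Cd74, from 4.06 to 3.17 for RT1-Da and from 3.57 to 2.14 for RT1-Ba between rat batches 2 and 6, while single rats overlap.

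Rat batch moved together with the order of the columns in the deposited table, which came in 3 runs of ascending rat identifier. Run 1 held all 12 rats of batch 2 and 7 of batch 3, run 2 held 12 rats of batch 3, and run 3 held all of batches 4, 5 and 6. Female rat 3, the rat with the highest Cd74, was the single rat of batch 3 in run 3. Batches 6 and 4 could therefore be compared within a run, as could batches 3 and 2, but batch 6 shared no run with batch 2 and shared one with batch 3 only through female rat 3. With run as a covariate, comparisons of batches 4 and 6 with batches 2 and 3 therefore rest on that rat.

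The F test over the 4 rat batches, with sex as a covariate, called all 3 genes, where it called 53.5% of all genes. Of the variance left after sex, rat batch took 15.2% in Cd74 (limma, adjusted p = 0.0161), 12.9% in RT1-Da (adjusted p = 0.0380) and 14.9% in RT1-Ba (adjusted p = 0.0190). The median over all genes was 13.6%, so the 3 genes were near the middle of the table in this. With column run as a covariate rat batch took 17.2%, 8.77% and 11.8% of the variance left after sex and run in Cd74, RT1-Da and RT1-Ba. None of the 3 genes was called (limma, adjusted p = 0.119, 0.466 and 0.299). The adjustment runs over all genes, of which the number called went from 9192 to 169. The unadjusted limma p was lower with run for Cd74 (0.00379 against 0.007). It was higher for RT1-Da (0.0943 against 0.0193) and RT1-Ba (0.0311 against 0.00851). Part of the fit with run rests on female rat 3. The call for RT1-Da was lost without male rat 24 (9.94%, adjusted p = 0.102) or without male rat 25 (10.7%, adjusted p = 0.0822). Without both rats the call for RT1-Ba was lost as well (10.6%, adjusted p = 0.0846). With 20 principal components of expression as covariates all 3 calls were lost (limma, adjusted p = 0.629, 0.754 and 0.573 for Cd74, RT1-Da and RT1-Ba). These components were computed from the same expression values and can carry the batch difference itself. With them 12 of all genes were called. The calls of all 3 genes were also lost without rat batch 2 and without rat batch 6. Further settings that lost the call for RT1-Da are given in the last section.

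Pairs of rat batches were read from the same fit. Rat batch 6 was below rat batch 2 by -1.01 for Cd74 (SE 0.29, limma, adjusted p = 0.00516), -1.03 for RT1-Da (SE 0.34, adjusted p = 0.0122) and -1.66 for RT1-Ba (SE 0.47, adjusted p = 0.00385) on the log2 scale. All 3 genes were called, and 34.8% of all genes were. With column run as a covariate the differences were wider, -3.04, -2.24 and -3.50, and were not called after adjustment over all genes. These 3 differences rest on female rat 3. The calls were also lost with 20 principal components of expression as covariates (adjusted p = 0.614, 0.793 and 0.366). Without male rats 24 and 25 the difference of RT1-Da was -0.63 (adjusted p = 0.110). Rat batch 6 was below rat batch 3 by -0.60 for Cd74 (SE 0.25, adjusted p = 0.0480), a pair that called 43.1% of all genes, and RT1-Da (-0.63, adjusted p = 0.0692) and RT1-Ba (-0.63, adjusted p = 0.208) did not pass. The call for Cd74 was lost without female rat 3 (-0.50, limma, adjusted p = 0.0888). It was also lost with column run as a covariate (-2.59), where the difference rests on that rat. No gene of the 3 passed in the other 4 pairs, which called 3.44% (rat batch 3 against 2), 26.9% (4 against 2), 39.8% (4 against 3) and 3.87% (6 against 4) of all genes.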

How the data were processed

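RNA-Seq of the nucleus accumbens core of 75 HS rats was used. The authors deposited log2 values, made after trimming (cutadapt), RSEM estimates on Ensembl transcripts, upper-quartile scaling in DESeq2 and removal of low genes, with 1 added before the logarithm. The build in the submitters' notes is Rnor_6.0. RSEM divides reads that fit several genes by an estimate. Class II genes have related copies and differ between founder strains, and the part of this in the values was not tested.

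Scaled counts were whole to within 0.0004%. A scaling factor was searched for each library (0.55 to 2.5) and divided out, which gave counts, totals and CPM. Where the factor is below 1, a rounded value leaves the count open by about 1 read. The factor search, the limma fit and the permutation test were checked on simulated data. Differences were tested with limma 3.58.1 (R 4.3.3, trend) on all 17180 genes of the 74 libraries outside rat batch 5, with Benjamini-Hochberg adjustment and a threshold of 0.05. Permutations and correlations used numpy 2.4.6 and scipy 1.17.1. The authors tried to choose rats that were not related, but describe several pairs that appeared to be close relatives. Such pairs were not identified here, so p-values treat all rats as independent. Rats are numbered by sex in the order of the sample records.

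The 3 genes and the lists were chosen with earlier results of these data known. The correlations with depth and the places among similar genes were added after seeing the data. So were the alternatives for the batch pairs and the leaving out of single libraries. Named for their likeness were the genes with the highest and lowest r at a mean log2 of at least 5, of which at most 2 at each end are printed. In all, 16 planned lists of pathway and cell type genes (181 genes) were not used, because 0 of 47357 reference genes carried an Ensembl identifier. No column was left unmapped (0 columns).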

Additional observations from a re-analysis of the deposited data

Results flagged for a closer look

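Within the groups of 7 to 10 rats of 1 sex and rat batch, 12 checks asked whether the highest or lowest rat stood far from its neighbour, and 1 did. RT1-Ba was at 0 in female rat 18 of rat batch 6, and its distance to the next female (2.58 on the log2 scale) was 0.557 of the range of the 8 females, above the critical value of 0.526. That library was the deepest of all, with 26145409 reads, and held 43 reads of Cd74 and 12 of RT1-Da. The nominal chance rate is 1 in 20 groups, or 0.6 of 12, for normal values. It may not hold here, because the flagged value is at 0 reads. The checks were also not independent, since the same groups of rats served for 3 correlated genes.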

How the results depend on the processing

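RT1-Ba had the most libraries with few reads, 21 of 75 at 3 reads or fewer, and its log2 values near 0 move by whole reads. All 51 alternatives for the correlations kept their sign and call, with r from 0.507 to 0.762 and adjusted p from 1e-05 to 0.00011. All 41 alternatives for the interaction stayed uncalled, and 50 of 53 for the sex difference kept its sign and stayed uncalled. With 20 principal components of expression as covariates the sex difference was 0.39 for Cd74, 1.01 for RT1-Da and 2.21 for RT1-Ba. It was uncalled, with limma adjusted p from 0.869 to 0.975. These components can carry part of the sex difference, so that fit cannot decide its sign.

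The rat batch call kept its side in 33 of 53 alternatives. Each percentage here is a share of the variance left after sex and any added covariate, so its base differs between settings. Calls were lost for Cd74, RT1-Da and RT1-Ba with 20 components (10.4%, 7.09% and 12%) and with column run as a covariate (17.2%, 8.77% and 11.8%). They were also lost without rat batch 2 (8.09%, 7.20% and 4.84%) and without rat batch 6 (10.5%, 7.43% and 9.37%). RT1-Da also lost its call with a pseudocount of 8 (11.7%), log2 total as a covariate (11.5%), voom (12.9%, adjusted p = 0.0504, where all its alternatives ran from 0.0214 to 0.754), without rat batch 3 (13.7%), without male rat 24 (9.94%), without male rat 25 (10.7%) and without both (7.47%), and RT1-Ba without both (10.6%). The difference of rat batch 6 from 2 was uncalled with 20 components (-1.11, -0.76 and -2.70), with column run (-3.04, -2.24 and -3.50) and, for RT1-Da, without both rats (-0.63). That of Cd74 between rat batches 6 and 3 was uncalled with column run (-2.59) and without female rat 3 (-0.50), and was kept without male rat 24 (-0.62) and without male rat 25 (-0.60). Leaving out a rat batch leaves fewer rats, and the other causes were not tested. The number of genes called for rat batch was 9192 in the reported fit, 5723 without rat batch 3, 169 with column run and 12 with 20 components, and for sex it was 15, against 7 with 20 components.

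The spread of RT1-Da moved to 0.52 and that of RT1-Ba to 0.60 with a pseudocount of 8, to 0.35 and 0.37 on the log2 CPM scale, and RT1-Ba to 1.85 with 0.1, since a low count sets these values. The uncalled male to female variance ratio changed sign for Cd74 without rat batch 3 (0.11), for RT1-Ba with 20 components (0.0045), without rat batch 4 (0.023) and with batch means kept (0.24), and for RT1-Da with 20 components (-0.24), the inverse normal transformation (-0.080), log2 CPM (-0.13), a pseudocount of 8 (-0.089), without rat batch 6 (-0.22), without male rat 24 (-0.19) and without both rats (-0.46). The inverse normal transformation was not run for the spread, as it sets every gene to a like variance, and the marker lists and the microglia covariate were not run for want of gene names. RT1-Ba was below the filter of a mean log2 of at least 3. No paired analysis was possible because rat numbers only name the animals and link no female to a male.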
